A study of Mus musculus with 23 samples.

Results

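Klk8, Lrrc3, Nav3, Upk1b and Slco4a1 are 5 of the 33280 genes in a count table of sorted mouse brain macrophages, measured by RNA sequencing. They were chosen for their strong fall from microglia (MG) to subdural CNS-associated macrophages (sdCAMs), which comprise leptomeningeal and perivascular macrophages. Among genes called lower, with no overlap between groups, an average log2 CPM of at least 5 and a symbol other than that of a predicted gene, Klk8, Lrrc3 and Nav3 had the 3 strongest falls in control mice. In the same way, Upk1b and Slco4a1 had the 2 strongest in mice treated with BLZ945, which blocks the CSF-1 receptor and so removes most brain macrophages for a time. The fall itself is therefore given here as a description, without a test.

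All 23 libraries came from Ccr2creERT2/+ R26tdT/tdT mice, in which tamoxifen (2 mg per day) marks cells that express the monocyte receptor gene Ccr2, together with their descendants, with the fluorescent protein tdT. Mice were gavaged for 7 days with BLZ945 at 200 mg/kg or with vehicle (CTL), a thrombin stroke followed 8 weeks later, and brains were taken 1 day after the stroke. A coronal slice without choroid plexus was sorted into MG (CD45int CD11b+ CD206-) and sdCAMs (CD206int-high, tdT- or tdT+). There were 5 libraries each of MG CTL, MG BLZ945, tdT- sdCAM CTL and tdT- sdCAM BLZ945, and 3 of tdT+ sdCAM BLZ945. Every group had undergone stroke, and ages are not given in the labels. A tdT- cell is one without the mark and need not lack a monocyte origin. Each CTL library held 1 animal, whereas BLZ945 libraries held 2 animals except those named F2, which held 1, so that pooling went with treatment. The labels give 1 animal number both to F2 and to the pool M1 of BLZ945 mice, which may not be independent.

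MG are the macrophages of the brain parenchyma and keep an expression program set by their surroundings, whereas sdCAMs sit along vessels and in the meninges and carry scavenger receptors such as the one encoded by Mrc1 (CD206). The 5 genes belong to unrelated families. Klk8 encodes neuropsin, a secreted serine protease of the kallikrein family that is known from hippocampal neurons. Lrrc3 encodes a membrane protein with leucine-rich repeats. Nav3 encodes a neuron navigator, a protein that binds growing microtubule ends. Upk1b encodes a uroplakin of the tetraspanin family that is known from the bladder lining. Slco4a1 encodes a carrier of organic anions that can transport thyroid hormones.

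The start regions of the genes are shown to let their sequence be set beside their shared pattern. RefSeq promoters on GRCm38.p6 were at hand for 3 of the 5 genes, and none was used for Nav3 or Upk1b. Each line gives the 250 bases before the gene's start on its own strand, 5′ to 3′. The Klk8 stretch is chr7:43797327-43797576 (plus strand), that of Lrrc3 is chr10:77902537-77902786 (minus strand), and that of the first of 2 Slco4a1 starts is chr2:180455995-180456244 (plus strand).
Klk8: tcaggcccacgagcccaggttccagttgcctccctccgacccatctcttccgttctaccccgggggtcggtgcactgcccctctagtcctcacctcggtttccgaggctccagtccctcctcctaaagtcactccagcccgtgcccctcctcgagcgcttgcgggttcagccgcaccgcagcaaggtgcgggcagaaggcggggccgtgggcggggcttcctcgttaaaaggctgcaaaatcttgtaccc
Lrrc3: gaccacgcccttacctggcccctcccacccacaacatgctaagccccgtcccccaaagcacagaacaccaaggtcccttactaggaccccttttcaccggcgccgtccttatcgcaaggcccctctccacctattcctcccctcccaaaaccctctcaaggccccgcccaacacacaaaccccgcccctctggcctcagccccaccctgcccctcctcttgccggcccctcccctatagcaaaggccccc
Slco4a1: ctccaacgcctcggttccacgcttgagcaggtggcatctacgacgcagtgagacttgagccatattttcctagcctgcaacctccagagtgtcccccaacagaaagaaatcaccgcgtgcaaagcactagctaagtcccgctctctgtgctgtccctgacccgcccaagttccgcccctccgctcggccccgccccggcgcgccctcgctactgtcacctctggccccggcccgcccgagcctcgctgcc
These stretches were rich in G and C (65.2% for Klk8, 64.8% for Lrrc3 and 64.8% for Slco4a1), where the median of 32851 promoters was 52.4% and the upper quartile 61.2%. The stretch of the second Slco4a1 start, at chr2:180460728-180460977, had 54.8% and is not printed. Unlike for the other starts, the bases just after it were not found in a Gencode M21 transcript of the gene. A few motifs were searched on both strands. GAGGAAGT, bound by the macrophage factor PU.1, occurred in 2.44% of all promoters. TATTTATA (MEF2) occurred in 1.56%, TGTGGTT (RUNX) in 4.40%, GTCTAGAC (SMAD) in 0.167% and TGAGTCA (AP-1) in 4.46%. No match to any of them lay in the 4 stretches, which says only that these letters are not in these windows.

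All 5 genes were well covered in MG and sparse in sdCAMs. Over the 10 MG libraries the 50 values of the 5 genes were at least 402 counts each. Over the 13 sdCAM libraries 16 of 65 values were 0 and 23 were at 3 counts or fewer, and the highest was 165 counts. Library totals lay between 9433960 and 13276081 counts, at which 3 counts, taken as the floor, equalled 0.230 to 0.331 CPM (counts scaled to library totals with TMM factors). Without unique molecular identifiers, such floors cover counting error only.

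The sorted populations carried the markers of their labels, together with markers of other cells. Summed over 9 microglia markers, MG held 22005 to 33945 CPM and sdCAMs 1781 to 3198 CPM. Summed over 8 sdCAM markers, sdCAMs held 11945 to 17421 CPM and MG 13.8 to 50.2 CPM. Microglia markers were thus not at 0 in any sdCAM library, and 5 neuron markers summed to 48.3 to 132 CPM there against 5.43 to 14.9 CPM in MG. Over 4 astrocyte markers the median sums were 104, 40.8 and 51.9 CPM in tdT- CTL, tdT- BLZ945 and tdT+ sdCAMs (highest 248 CPM). The sums of MG libraries were 1.95 to 8.04 CPM. These markers differed among themselves. In tdT- sdCAM CTL, Gja1 averaged 107 CPM (highest 240 CPM), against 6.54 for Gfap, 9.62 for Slc1a2 and 2.38 CPM for Aqp4. In tdT- sdCAM BLZ945, Gja1 averaged 54.2 CPM, and Aqp4 at 0.225 CPM lay below its MG CTL mean of 0.817 CPM. Gfap and Slc1a2 had higher means in each sdCAM group than in MG. Over 3 fibroblast markers the sums were 8.20 to 46.0 CPM in sdCAMs and 0 to 0.849 CPM in MG. Although the slice was taken without choroid plexus, 3 markers of its epithelium reached 1735 CPM in tdT+ F3, 540 CPM in MG BLZ945 F3 and 152 CPM in tdT- BLZ945 F3, all of 1 pool, where the medians of these groups were 0.400, 0.795 and 7.32 CPM. Of these high sums, Ttr alone gave 1697, 533 and 151 CPM in the same order. In CTL mice the highest sum was 80.9 CPM (tdT- M1), of which Ttr gave 79.1 CPM. The part of these cells in the levels of the 5 genes was not tested. In sorted bulk RNA, fewer cells of a type and less RNA per cell cannot be told apart.

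Klk8 was measured at 80.8 ± 24.1 CPM in MG CTL and 76.3 ± 23.2 CPM in MG BLZ945 (mean ± SD, n = 5 each). By library, the MG CTL levels were 104 (F1), 87.8 (F2), 63.2 (F3), 100.3 (M1) and 48.6 CPM (M2), and the MG BLZ945 levels 68.3, 115, 65.4, 78.5 and 54.5 CPM in the same order of labels. The treatment groups of MG overlapped, and M2 was the lowest library in both. In tdT- sdCAM CTL the levels were 1.77 (F1), 0.930 (F2), 0.501 (F3), 1.01 (M1) and 0 CPM (M2), and in tdT- sdCAM BLZ945 they were 0, 3.24, 1.63, 1.76 and 0 CPM. In tdT+ sdCAMs, Klk8 reached 5.11 (F2), 1.68 (F3) and 2.30 CPM (M2). Every sdCAM library lay below every MG library, and the 3 sdCAM groups overlapped. A noncoding gene on the opposite strand of Klk8, 2310002F09Rik, had at most 13 counts in any library, and whether reads were counted by strand is not given in the sources used here.

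Lrrc3 was the most abundant of the 5 in CPM, with 209 ± 41.2 in MG CTL and 287 ± 33.1 in MG BLZ945 (n = 5 each). The MG CTL levels were 213 (F1), 251 (F2), 184 (F3), 244 (M1) and 152 CPM (M2), and those of MG BLZ945 261, 319, 248, 320 and 289 CPM. Only F3 of MG BLZ945 lay within the MG CTL range, 248 against a CTL maximum of 251 CPM. In tdT- sdCAM CTL the levels were 2.69, 6.04, 1.20, 0.777 and 0.324 CPM, and in tdT- sdCAM BLZ945 8.68, 0.649, 8.40, 6.34 and 8.38 CPM. In tdT+ sdCAMs they were 2.89 (F2), 2.28 (F3) and 0.400 CPM (M2). Of the 5 genes, Lrrc3 and none other had more than 3 counts in all 13 sdCAM libraries. The tdT- BLZ945 libraries other than F2 lay above all CTL and tdT+ libraries, and F2 lay within both.

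Nav3 was measured at 90.0 ± 21.0 CPM in MG CTL and 99.6 ± 18.5 CPM in MG BLZ945 (n = 5 each). The MG CTL levels were 69.7 (F1), 92.6 (F2), 78.2 (F3), 124 (M1) and 85.2 CPM (M2), and the MG BLZ945 levels 81.5, 103, 85.3, 128 and 100.2 CPM. In tdT- sdCAM CTL Nav3 was at 0.590, 0.387, 2.00, 1.86 and 0.162 CPM. In tdT- sdCAM BLZ945 it was at 0.321, 17.8, 0.452, 2.93 and 0.992 CPM, so that F2 stood apart with 165 counts. In tdT+ sdCAMs it was at 1.25 (F2), 1.68 (F3) and 2.90 CPM (M2), and the tdT+ library of the same F2 animal did not share the high value.

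Upk1b was measured at 91.5 ± 37.0 CPM in MG CTL and 50.2 ± 13.6 CPM in MG BLZ945 (n = 5 each). The MG CTL levels split into F1, F2 and M1 at 126, 111 and 117 CPM and F3 and M2 at 57.4 and 46.0 CPM. The MG BLZ945 levels were 40.6 (F1), 63.5 (F2), 41.2 (F3), 66.5 (M1) and 39.2 CPM (M2), with F1, F3 and M2 below all CTL libraries and the other two between the lower and the upper CTL libraries. In sdCAMs Upk1b was at 0 in 8 of 13 libraries. It reached 3.20 CPM in F1 and 3.25 CPM in F2, with 1 count in F3, in tdT- sdCAM CTL, 0.772 CPM (M2) in tdT- sdCAM BLZ945 and 10.9 CPM (F2) in tdT+ sdCAMs. The tdT+ F2 library held 113 counts of Upk1b, while F3 and M2 of that group held none.

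Slco4a1 was measured at 68.8 ± 25.3 CPM in MG CTL and 78.3 ± 13.5 CPM in MG BLZ945 (n = 5 each). The MG CTL levels were 94.5 (F1), 96.8 (F2), 46.4 (F3), 60.6 (M1) and 45.6 CPM (M2), and the MG BLZ945 levels 59.6, 74.9, 74.3, 93.3 and 89.5 CPM, so that the groups overlapped. In tdT- sdCAM CTL it was at 3.79, 2.17, 0.200, 0.0777 and 0 CPM, and in tdT- sdCAM BLZ945 at 2.68 and 0.0904 CPM in F1 and F3 and at 0 in F2, M1 and M2. In tdT+ sdCAMs it was at 0 (F2), 0.0989 (F3) and 4.90 CPM (M2). Upk1b and Slco4a1 thus peaked in different tdT+ libraries, although MG of those animals held both, with 63.5 and 74.9 CPM in F2 and 39.2 and 89.5 CPM in M2.

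**Figure D1:**
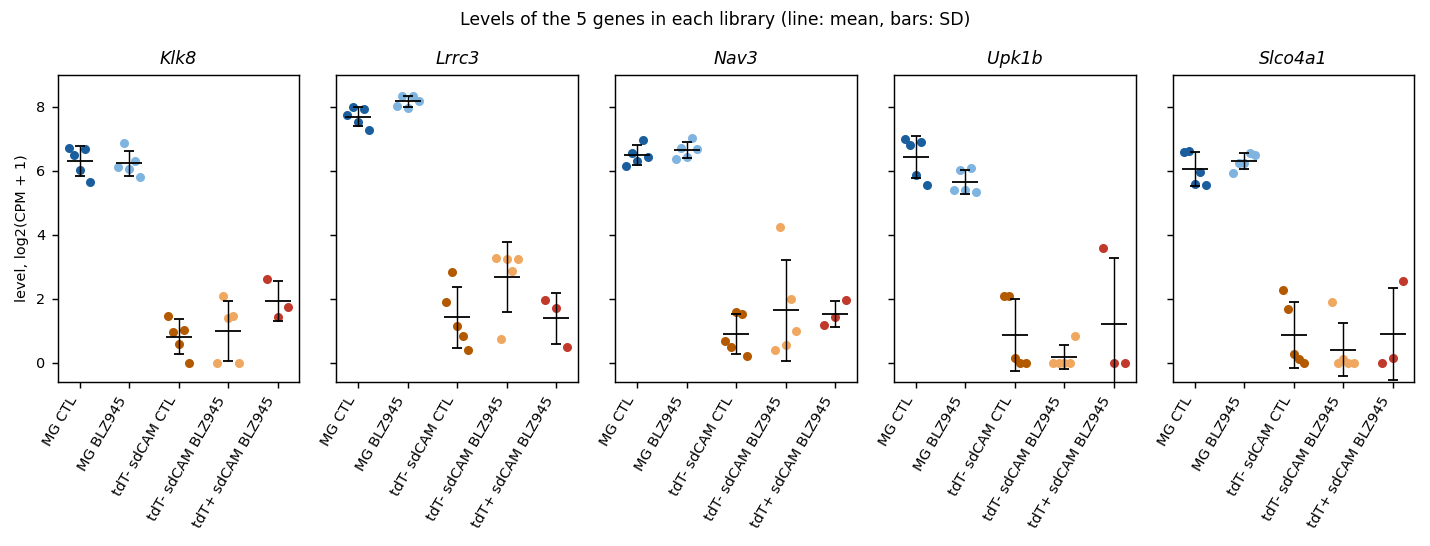
Levels on the log2(CPM + 1) scale (y axis) of the 5 genes in each library (points), by group (x axis), with the group mean (horizontal line) and SD (bars), n = 5 or, for tdT+ sdCAM BLZ945, n = 3. Every MG library lay above every sdCAM library for each gene, and single sdCAM libraries stood above their group, such as F2 for Nav3 in tdT- sdCAM BLZ945 (17.8 CPM).

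Per kilobase of exon (exon union in Gencode M21), the order of levels changed, because the unions differ in length from 1540 bases for Klk8 to 15207 bases for Nav3. A union merges the exons of all annotated transcripts and can be longer than the transcript present. In MG CTL the levels were 52.5 ± 15.6 CPM per kb for Klk8, 48.6 ± 9.58 for Lrrc3, 43.8 ± 17.7 for Upk1b, 14.3 ± 5.26 for Slco4a1 and 5.92 ± 1.38 for Nav3. Klk8, Lrrc3 and Upk1b did not differ beyond their SD, while Slco4a1 and Nav3 followed with SD ranges apart. In MG BLZ945 the levels were 66.8 ± 7.70 CPM per kb for Lrrc3, 49.6 ± 15.1 for Klk8, 24.0 ± 6.51 for Upk1b, 16.3 ± 2.81 for Slco4a1 and 6.55 ± 1.21 for Nav3. Here the SD ranges of Lrrc3 and Klk8 overlapped, as did those of Upk1b and Slco4a1.

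The contrasts used to choose the genes gave log2 fold changes of -6.56 for Klk8, -6.54 for Lrrc3, -6.51 for Nav3, -6.10 for Upk1b and -5.77 for Slco4a1 in tdT- sdCAM CTL against MG CTL. In tdT- sdCAM BLZ945 against MG BLZ945 they were -5.82, -5.45, -4.46, -8.32 and -7.14. Several of these moved by more than 1.5 times when each library was left out in turn, an alternative chosen after seeing the data. In BLZ945 mice, Nav3 was at -6.38 and Klk8 at -6.42 without tdT- F2. Upk1b had 0 counts left in tdT- sdCAM BLZ945 without M2, and Slco4a1 1 count without F1, so that no fold is given for them there. In CTL mice, Lrrc3 was at -7.39 without tdT- F2, Slco4a1 at -6.77 without tdT- F1, and Upk1b at -6.74 and -6.77 without tdT- F1 or F2. No other library moved a fold of these contrasts by more than 1.5 times. Fitted over 12697 genes, 10.3% of genes were called lower in the CTL contrast and 14.1% in the BLZ945 contrast, and the groups did not overlap and were lower for 11.9% and 11.6%. All 5 genes were among them in both, as the rule required for the contrast that chose each, and nothing is read from that. Over all 12697 genes, including those at low levels, Klk8, Lrrc3 and Nav3 ranked 32nd to 34th in the CTL contrast, and Upk1b and Slco4a1 ranked 13th and 53rd in the BLZ945 contrast. Among the 671 genes that met the limits of the rule, the next in CTL mice was Spint1 (4th, -6.44), a serine protease inhibitor gene. Among 746 such genes in BLZ945 mice, the next was Sall1 (3rd, -6.94), a transcription factor gene of MG identity.

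Within the same animal or pool, the 5 genes were left at low shares of the MG level. The median was 0.793% in tdT- sdCAM CTL (25 values, 0 to 4.01%), 0.530% in tdT- sdCAM BLZ945 (25 values, 0 to 17.4%) and 1.22% in tdT+ sdCAMs (15 values, 0 to 17.2%). For 9 common microglia markers the medians were 7.57%, 8.23% and 6.34%. P2ry12, the purinergic receptor gene of ramified MG, stayed at 6.34 to 12.0% in all 13 sdCAM libraries, and P2ry13 at 18.9 to 31.7%. Tmem119, Sall1 and Sparc overlapped with the 5 genes, at 0.721 to 4.67%, 0.105 to 6.98% and 1.05 to 4.15%. In 1 of 13 sdCAM libraries (tdT- CTL M1) all 5 genes lay below all 9 markers. Since the genes were chosen for this fall, the shares are a description.

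**Figure D2:**
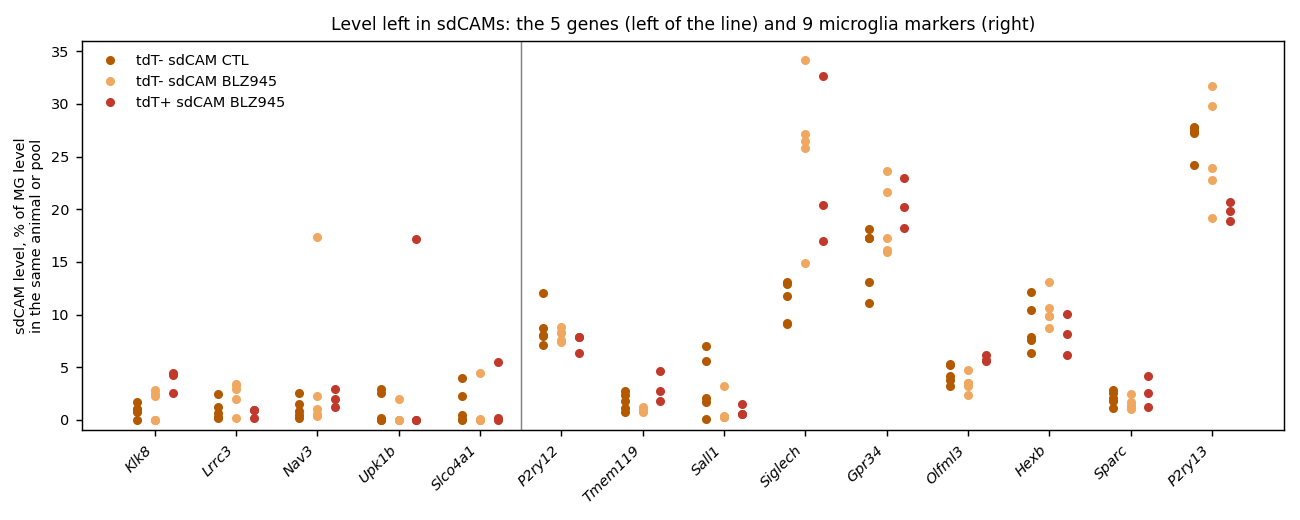
Level in each sdCAM library as a percentage of the level in MG of the same animal or pool (y axis) for the 5 genes and, right of the line, 9 microglia markers (x axis), with 1 point per animal or pool and colour by sdCAM group. Most points of the 5 genes lay under 5%, apart from Nav3 in tdT- sdCAM BLZ945 F2 (17.4%), Upk1b in tdT+ F2 (17.2%) and Slco4a1 in tdT+ M2 (5.47%). Of the markers, P2ry13 had the highest minimum, at 18.9%, and Siglech the highest single value, at 34.2%. Tmem119, Sall1, Sparc and Olfml3 lay at 0.105 to 6.98%, among the values of the 5 genes.

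The traces in sdCAMs were not spread evenly over libraries. In tdT- sdCAM CTL the 5 genes summed to 143 (F1), 165 (F2), 40 (F3), 48 (M1) and 6 counts (M2), and F1 and F2 alone of the 13 sdCAM libraries held all 5 at more than 3 counts. In the same 5 libraries P2ry12 had 3561 to 5676 counts. In tdT- sdCAM BLZ945 the sums were 109 (F1), 201 (F2), 117 (F3), 113 (M1) and 92 counts (M2), with F2 led by Nav3 and the other libraries by Lrrc3. In tdT+ sdCAMs they were 209 (F2), 58 (F3) and 105 counts (M2), led by Upk1b, Lrrc3 and Slco4a1 in turn. Which gene gave the trace thus differed between libraries, and the part of cells or RNA from MG in it was not tested.

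BLZ945 treatment in MG addressed whether MG that refilled the brain carry the genes at the level of untreated MG after stroke. The comparisons from here on share libraries with those that chose the genes. None of the 5 was called at an adjusted p under 0.05 by edgeR, against 0.408% of 11264 genes (46 genes, 28 higher and 18 lower). At an unadjusted p under 0.05 there were 2 of 5, beside 13.2% of all genes, and DESeq2 called 0 of 5, beside 2.11%. Of the 5, Upk1b had the log2 fold change furthest from 0, at -0.88 (SE 0.25, adjusted p = 0.152 by edgeR). That of Lrrc3 was 0.44 (SE 0.13, adjusted p = 0.164 by edgeR). Klk8 (-0.10, SE 0.21), Nav3 (0.13, SE 0.16) and Slco4a1 (0.17, SE 0.21) had adjusted p-values of 0.890, 0.776 and 0.773. Upk1b passed the threshold in 3 of 16 alternatives. These were the fit without a filter on low counts (adjusted p = 0.00518), the fit with the replicate label as a block (-0.81, adjusted p = 0.0448) and the fit without MG CTL M2, its lowest CTL library (-1.05, adjusted p = 0.0289).

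In tdT- sdCAMs, BLZ945 against CTL gave no call for the 5 genes by edgeR, with 0 of 5 at an unadjusted p under 0.05 and 0 by DESeq2. Over all 13076 genes 0.00% were called (697 at an unadjusted p under 0.05, 56 by DESeq2). The log2 fold changes were 0.64 (SE 1.32) for Klk8, 1.57 (SE 0.92) for Lrrc3, 2.16 (SE 1.14) for Nav3, -2.99 (SE 2.05) for Upk1b and -1.15 (SE 1.82) for Slco4a1. The SE of each was larger than in MG.

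Among sdCAMs of BLZ945 mice, tdT+ against tdT- cells asked whether cells with the Ccr2 mark differ from those without it. Again 0 of 5 genes were called by edgeR (0 at an unadjusted p under 0.05, 0 by DESeq2), against 0.206% of 13076 genes (27 genes, 2 higher and 25 lower). The log2 fold changes were 1.17 (SE 1.49) for Klk8, -1.84 (SE 1.12) for Lrrc3, -1.20 (SE 1.32) for Nav3, 4.41 (SE 2.27) for Upk1b and 1.57 (SE 2.03) for Slco4a1. Single libraries set the direction of 3 of them. It turned to 0.71 for Nav3 without tdT- F2, to -3.83 for Upk1b without tdT+ F2 and to -3.22 for Slco4a1 without tdT+ M2. With the animal or pool as a block, that of Nav3 was 0.21. Summed over 5 monocyte markers, Ccr2 among them, tdT- BLZ945 libraries held 217 (F1), 22.8 (F2), 9.58 (F3), 100.035 (M1) and 0 CPM (M2), and tdT+ libraries 8.30 (F2), 45.7 (F3) and 15.1 CPM (M2). Ccr2 itself averaged 35.9 ± 49.0 CPM in tdT- (SD, n = 5) and 21.2 ± 18.9 CPM in tdT+ cells (n = 3), and the groups overlapped. Summed over 4 neutrophil markers, tdT- F1 held 74.1 CPM and tdT+ M2 17.6 CPM, and the others of these groups at most 3.07 CPM. Both of these high sums were Retnlg alone (692 and 176 counts). Both libraries held the most Slco4a1 of their groups. That was not so in tdT- sdCAM CTL, where M2 had the highest neutrophil sum (11.03 CPM) with Slco4a1 at 0. Retnlg was at 0 in all libraries of that group, so that its sums came from the other markers of the list. F1 of that group had the most Slco4a1 (3.79 CPM) with a sum of 0.674 CPM. Without tdT- F1 the change of Slco4a1 was 5.56 and those of the other 4 genes kept their direction, with none called. Per the study's methods, the sort took Ly6C- Ly6G- CD11c- cells, a gate that leaves out neutrophils and Ly6C+ monocytes, and the part of such cells in these levels was not tested.

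**Figure D3:**
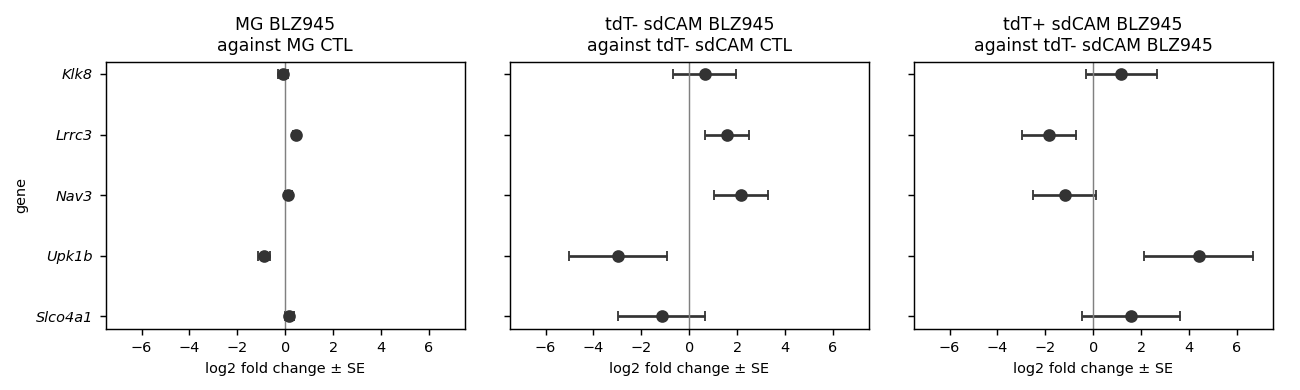
Log2 fold changes (x axis, points) with their SE (bars) from edgeR for the 5 genes (y axis) in 3 comparisons, on 1 common scale. In MG all 5 lay between -0.88 and 0.44 with an SE of at most 0.25, and in sdCAMs the SE reached 2.27.

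In tdT+ sdCAMs against MG of the same mice, the log2 fold changes were -7.25 for Lrrc3 (SE 0.72), -5.66 for Nav3 (SE 1.14), -5.54 for Slco4a1 (SE 1.42), -4.64 for Klk8 (SE 0.94) and -3.78 for Upk1b (SE 1.39). The tdT+ libraries did not enter the choice of the genes, but the MG BLZ945 libraries did, and the genes were picked for a fall of this kind, so that these values are a description without a test. All 3 tdT+ libraries lay below all 5 MG libraries for each gene, as in the plot of levels by group. Without tdT+ F3, the library with the highest choroid plexus sum, the changes were -7.43 for Lrrc3, -5.57 for Nav3 and -4.36 for Klk8. Without tdT+ F2, that of Klk8 was -5.24. The changes of Upk1b and Slco4a1 each hung on 1 tdT+ library, since Upk1b had 0 counts left without F2 and Slco4a1 1 count without M2. Of 12868 genes, 7.05% were called lower and 11.8% higher in this comparison. Neuron markers (5 of 5 tested) and astrocyte markers (4 of 4 tested) were among those called higher in tdT+ sdCAMs, and their part in the levels of the 5 genes was not tested.

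Relatives of the 5 genes were described from lists drawn up for their families. In tdT- sdCAM CTL against MG CTL, 15.3% of genes were called higher, and 18.3% in the BLZ945 contrast. Of 12 other kallikrein genes, 2 relatives of Lrrc3 and 4 other uroplakin genes, 0 passed the filter on low counts there, whereas Klk8, Lrrc3 and Upk1b did. Klk1, a kallikrein gene of glandular tissue, passed the filter in the model of sdCAMs alone and was not called there. It averaged 1.65 ± 3.70 CPM in tdT- sdCAM CTL and 1.37 ± 1.89 CPM in tdT- sdCAM BLZ945 (SD, n = 5 each), held by 1 and 2 libraries, and was at 0 in all MG and tdT+ libraries. Klk6, an oligodendrocyte kallikrein gene, had 19 counts in MG CTL F1 (1.73 CPM) and 0 in the other MG CTL libraries, at most 7 counts in MG BLZ945, and 49 counts in tdT+ F3 (4.85 CPM). Upk1a, which shares the tetraspanin fold with Upk1b, was at 0 in MG CTL and had 3 counts in 1 MG BLZ945 library. It had 34 counts (3.28 CPM) in tdT+ F2, the library that also held 113 counts of Upk1b. Upk2, which encodes a partner in the uroplakin plaque, was at 0 in all 23 libraries, and Upk3a, another, had at most 4 counts in any.

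The other navigators differed in direction. Nav2 fell by 3.75 on the log2 scale (SE 0.65, edgeR adjusted p = 0.000121) in tdT- sdCAM CTL against MG CTL, from 28.1 ± 7.44 to 2.07 ± 1.15 CPM (SD, n = 5). Nav1 rose by 1.46 (SE 0.39, edgeR adjusted p = 0.00728), from 8.34 ± 3.63 to 22.9 ± 6.41 CPM. Of 9 navigator and microtubule plus-end genes other than Nav3, 2 rose, 2 fell and 5 were not called, beside 15.3% of all genes called higher and 10.3% lower, with a median log2 fold change of -0.24 beside -0.01 over all genes. In the BLZ945 contrast 2 rose and 3 fell.

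Tetraspanins are the superfamily of Upk1b. Of 20 tested in CTL mice, 11 fell, 3 rose and 6 were not called, with a median log2 fold change of -0.55, beside 10.3% of all genes called lower and 15.3% higher. In tdT- sdCAMs of BLZ945 mice 8 fell, 4 rose and 8 were not called, with a median of -0.45, beside 14.1% called lower and 18.3% higher. In tdT+ sdCAMs against MG 6 fell, 2 rose and 12 were not called, with a median of -0.53, beside 7.05% called lower and 11.8% higher. In CTL mice Cd9, which organizes membrane microdomains, fell by 4.95 on the log2 scale, from 2357 ± 439 to 76.2 ± 20.4 CPM, and Tspan13 by 3.09. Cd63, a tetraspanin of late endosomes, rose with a log2 fold change of 1.02 and Tspan17 with 2.81. Counts and medians describe these lists and were not tested against other genes.

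Of 11 other organic anion transporter genes, 4 were tested in tdT- sdCAM CTL against MG CTL. Of these 1 rose and 1 fell, beside 15.3% of all genes called higher and 10.3% lower. Slco2b1 fell by 0.93 on the log2 scale in CTL mice, from 677 ± 128 to 358 ± 52.6 CPM, and stayed well expressed in sdCAMs. Slco3a1 rose with a log2 fold change of 4.30, from 0.222 ± 0.201 to 4.57 ± 1.96 CPM, and the other two were not called. Among genes of thyroid hormone handling, 6 of 9 were tested, and in CTL mice 1 rose and 1 fell, beside the same shares. In tdT- sdCAMs of BLZ945 mice 2 rose and 2 fell, beside 18.3% called higher and 14.1% lower. In tdT+ sdCAMs against MG 2 rose and 1 fell, beside 11.8% called higher and 7.05% lower. In CTL mice Slc7a5, an amino acid carrier that also moves thyroid hormone, fell by 2.82 on the log2 scale. The receptor gene Thra rose there with a log2 fold change of 1.96. None of these family lists had a called gene in MG BLZ945 against MG CTL, with 9 plus-end genes, 18 tetraspanins, 3 organic anion transporters and 4 thyroid hormone genes tested by edgeR. Of these 34 genes, 3 had an unadjusted p under 0.05, beside 13.2% of all genes, and DESeq2 called 1 of them, the tetraspanin gene Tspan33, beside 2.11%. Neither count stands out from the share over all genes.

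**Figure D4:**
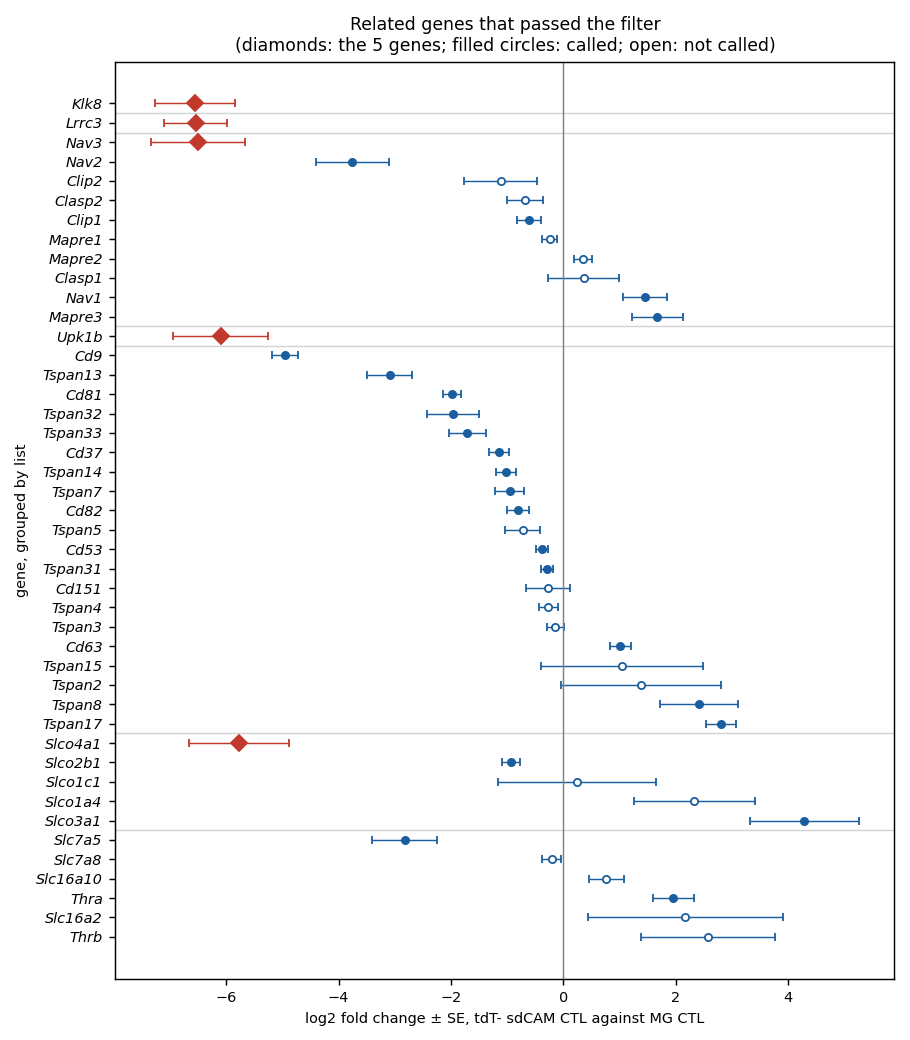
Log2 fold change with SE (x axis) in tdT- sdCAM CTL against MG CTL for the related genes that passed the filter on low counts (y axis, grouped by list), with diamonds for the 5 genes, which were chosen for or beside this fall, filled circles for called and open circles for other genes. Cd9 (-4.95) and Nav2 (-3.75) lay nearest to the 5 genes, while Slco3a1 (4.30) and Tspan17 (2.81) lay on the other side.

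The genes whose 5 group means of log2(CPM + 1), centred on their own mean, came nearest were named for each gene, from 11034 genes. For Klk8 they were Lhfpl2 (root mean square difference 0.20), Jam2 (0.24) and Phgdh (0.29), the last encoding the first enzyme of serine synthesis. For Lrrc3 they were Il1a (0.30), the cytokine gene, Spint1 (0.34) and Mmp12 (0.40), a macrophage elastase gene. For Nav3 they were Mlph (0.23), St3gal5 (0.24) and Adora3 (0.28), an adenosine receptor gene. For Upk1b they were Jam2 (0.22), a junctional adhesion gene, Phgdh (0.28) and Adamts1 (0.29). For Slco4a1 they were Adora3 (0.15), Atp8a2 (0.15) and Adamts1 (0.16). The likeness rests on 5 group means and mainly on the step from MG to sdCAMs, which many genes share.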

How the data were processed

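The authors deposited raw counts, whole numbers without normalization, in 1 table of 33280 gene symbols (9482 at 0 in all 23 libraries). Per the labels, the authors prepared SMART-Seq mRNA LP libraries from sorted cells. The submitters' processing notes name STAR 2.7.11a and featureCounts 2.0.6, and the genome build of this table is not given in the sources used here. Tests used edgeR 4.0.16 under R 4.3.3 (TMM factors, filterByExpr, glmQLFit and glmQLFTest) over all genes that passed the filter, with Benjamini-Hochberg adjustment and calls at an adjusted p under 0.05. Models held the 10 MG libraries, the 13 sdCAM libraries, the 13 BLZ945 libraries or the 20 libraries of MG and tdT- sdCAMs. A planned test of Klk8, Lrrc3 and Nav3 in tdT+ sdCAMs against MG is not reported, because the choice of the genes had used the MG libraries. The SE is the log2 fold change divided by the root of its F statistic. The list genes named include Tspan33, Klk1 and the markers Retnlg, Gja1, Gfap, Slc1a2, Aqp4, Ttr and Siglech, named after their values were seen. Alternatives were DESeq2 1.42.0, RLE factors, other filters, 1 model of all libraries, a replicate block, each library left out (for sdCAMs against MG, in part added after seeing the data), and CPM without TMM factors. The scripts were tested on simulated data. The 5 genes and all lists were chosen with earlier results of these data known. Named genes are the 5, their 3 nearest by pattern and listed relatives that passed the filter, with a few at low levels named to describe their family and Spint1 and Sall1 named as the next in rank. Within a treatment, equal labels name the same animals or pools, whose deviations from group means correlated at 0.0286 to 0.183. No 2 libraries of a group were duplicates (chi-square per gene at least 15.7 over 43 pairs).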

Additional observations from a re-analysis of the deposited data

Results flagged for a closer look

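In 20 groups of 5 libraries (5 genes in 4 groups), 3 had a library whose gap to its nearest neighbour exceeded Dixon's 95% critical value, all in tdT- sdCAM BLZ945. Nav3 was at 17.8 CPM (165 counts) in F2, where the other libraries held 3 to 30 counts. For a single group of well-measured values, chance flags about 1 in 20. That rate does not hold for the other two, because 4 of their 5 libraries held 0 or 1 counts so that a library with a few counts stands apart by construction. These were Slco4a1, at 2.68 CPM (25 counts) in F1, and Upk1b, at 0.772 CPM (7 counts) in M2.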

How the results depend on the processing

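Genes called in MG BLZ945 against MG CTL numbered 46, and 238 with DESeq2, 193 without a filter on low counts, 12 with all 23 libraries in 1 model, 89 with the replicate block and 22 to 102 with 1 library left out (lowest without CTL M1 or F2, highest without CTL M2). In tdT- sdCAM BLZ945 against CTL they numbered 0, and 56 with DESeq2 and 29 in 1 model of all libraries. In tdT+ against tdT- sdCAMs they numbered 27, and 133 with DESeq2, 82 in 1 model, 15 with the replicate label as a block, 6 with the animal or pool as a block (added after seeing the data) and 16 to 27 with 1 library left out. The cause was not tested. The block changed no call of the 5 genes other than that of Upk1b in MG. Between treatments equal labels name different animals (correlations -0.0803 to 0.186), so that this block pairs no samples. With 1 library left out, Klk8 in MG ranged from -0.30 to 0.01 (0.01 without CTL F1, 0.00 without BLZ945 M2). In tdT+ against tdT- sdCAMs, Nav3 ranged from -1.61 to 0.71 (without tdT- F2), Upk1b from -3.83 (without tdT+ F2) to 8.27 and Slco4a1 from -3.22 (without tdT+ M2) to 5.56, and Nav3 was at 0.21 with the animal block. Group means of the 5 genes moved by less than 1 SD with plain library totals in all 25 cases. With at least 10 counts required in every library, the 5 genes gave no value in sdCAM models. Low counts limit the sdCAM values, of which 23 of 65 were at 3 counts or fewer.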
